A study of Mus musculus with 12 samples.

Results

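Zfp36, Zfp36l1 and Zfp36l2 encode a small family of RNA-binding proteins, and their MOF peaks in mouse visceral white adipose tissue (WAT) are described here. The 3 genes were chosen by name, with their peaks in these data already known, from 55413 genes that GENCODE mouse release M21 places on chromosomes 1 to 19, X and Y. A peak was taken for a gene when it lay in the gene body or within 10 kb of any annotated start site. This gave 11 of the 19773 Mof+/+ peaks and 4 of the 731 Mof+/- peaks, and the antisense neighbour of Zfp36l2 added 1 further Mof+/+ peak. Peak positions, widths, enrichments and overlaps at these genes chose the members, so all of them are given as a description with no test.

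MOF (KAT8) is a lysine acetyltransferase and the major enzyme behind H4K16ac, an acetyl mark on the tail of histone H4. Its binding was mapped by chromatin immunoprecipitation and sequencing (ChIP-seq) in C57BL/6 mice aged 8 weeks on a standard diet, labelled wild type (Mof+/+) or Mof heterozygous (Mof+/-, with one functional copy of the gene). The labels describe 12 libraries in 6 groups of 2, with MOF ChIP, H3 ChIP and input libraries of each genotype. The deposited data analysed here are 1 peak list per genotype with no column for a single library, so there was no spread between animals to set a difference against. Per the paper's methods, the tissue was minced, dissociated, strained and pelleted, and no sorting of cell types is named. Fewer cells with MOF at a site and less MOF per cell therefore cannot be told apart.

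ZFP36 (tristetraprolin), ZFP36L1 and ZFP36L2 bind AU-rich elements in the 3′ untranslated region (UTR) of messenger RNAs through a pair of CCCH zinc fingers, each holding 3 cysteines and 1 histidine. Bound mRNAs are handed to the CCR4-NOT complex, which shortens the poly(A) tail, and are then decapped or degraded by the exosome. Zfp36 is an immediate early gene whose product limits inflammatory cytokines such as TNF, while Zfp36l1 and Zfp36l2 are known for their part in lymphocyte development. The remaining mouse gene of the family, Zfp36l3, is known from placenta.

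The sequences at the summits, the positions of highest enrichment, show the ground on which the peaks of Zfp36l1 and Zfp36l2 sat. Each line is 101 bases of GRCm38 patch 6 from RefSeq, centred on a summit and written 5′ to 3′ on the strand of the gene, with CG dinucleotides in capitals. The Mof+/+ summit of Zfp36l2 lies at chr17:84186168-84186268 within coding sequence. The Mof+/+ summit of Zfp36l1 lies at chr12:80112413-80112513 in its intron, its downstream Mof+/- summit at chr12:80112054-80112154 in the same intron, and its upstream Mof+/- summit at chr12:80115503-80115603 between genes. All 4 are read from the minus strand.
Zfp36l2 Mof+/+ summit: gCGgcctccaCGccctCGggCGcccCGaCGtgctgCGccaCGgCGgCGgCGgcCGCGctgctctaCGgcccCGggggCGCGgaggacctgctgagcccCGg
Zfp36l1 Mof+/+ summit: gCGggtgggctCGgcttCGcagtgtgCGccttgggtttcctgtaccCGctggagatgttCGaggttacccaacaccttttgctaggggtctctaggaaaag
Zfp36l1 Mof+/- summit, downstream: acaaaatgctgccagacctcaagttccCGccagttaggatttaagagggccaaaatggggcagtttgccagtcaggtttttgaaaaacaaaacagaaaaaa
Zfp36l1 Mof+/- summit, upstream: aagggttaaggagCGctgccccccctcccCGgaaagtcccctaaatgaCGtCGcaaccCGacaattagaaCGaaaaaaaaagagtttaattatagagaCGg

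These windows differed widely in base composition. The coding window of Zfp36l2 held 18 CG dinucleotides and 84.2% G and C. The intron window of Zfp36l1 held 6 CG and 58.4% G and C, and the Mof+/- window further down the same intron held 1 CG and 42.6%. The upstream Mof+/- window held 7 CG at 48.5% G and C. The summit windows therefore ranged from dense to sparse in CG. Zfp36 summits lay in a UTR of one transcript and are not shown.

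All 3 genes had peaks of both genotypes. Among all 21938 protein-coding genes, 48.3% had a Mof+/+ peak and 2.38% had a Mof+/- peak under the same rule. The 3 members were chosen on these peaks, so nothing is read from their count. Each gene had 1 wide Mof+/+ peak that reached over every annotated start site of the gene, with smaller peaks on either side, and the Mof+/- peaks lay inside the wide one. The fold enrichment used here is the ratio of fragments at the summit to the local background from input DNA, each with 1 added, as the authors' peak caller gave it.

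**Figure D1:**
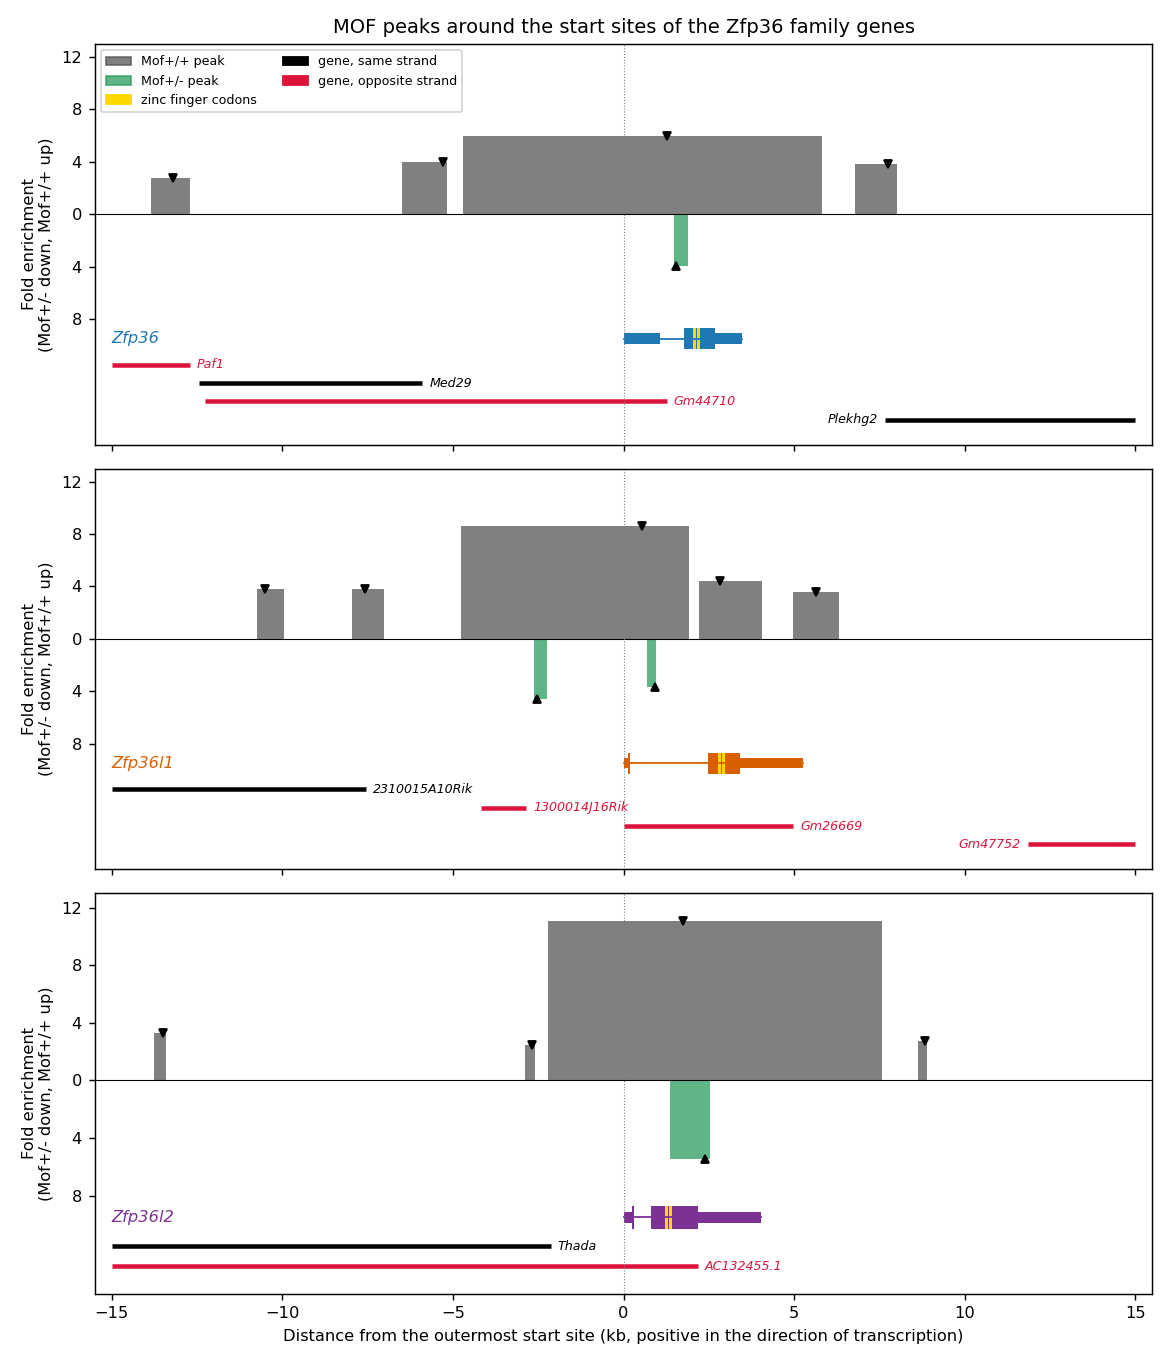
MOF peaks within 15 kb of the outermost start site of each gene, with distance in kb in the direction of transcription and fold enrichment as bar height (Mof+/+ up, Mof+/- down, triangles at the summits). Thick boxes are coding sequence, yellow marks the zinc finger codons, and each Mof+/- bar lies under the wide Mof+/+ bar of its gene.

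Zfp36l2 had the strongest peak of the family. The gene lies on chromosome 17 from 84183931 to 84187947 on the minus strand and has 1 annotated transcript. Its wide Mof+/+ peak ran from 84180368 to 84190169, a width of 9802 bp, and had a fold enrichment of 11.1. By fold enrichment it was number 5 among the 19753 Mof+/+ peaks on these chromosomes, and by width it was number 14. The fragments and background at a summit could be solved from the fold enrichment and p-value, and this summit held 49 fragments over a background of 3.52. The 95% Poisson interval of those fragments puts the fold enrichment between 8.24 and 14.6, which covers counting error only, as do all intervals given here.

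The summit of that peak was not at the start site. It lay at 84186218, 1729 bp downstream of the start and in the second exon, at residue 330 of the 484 residues that the coding sequence translates to. The codons of both zinc fingers lay under the peak, 450 and 336 bp from the summit. The peak covered the whole gene.

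The Mof+/- list kept a narrower peak over the same exon. It ran from 84185402 to 84186575, a width of 1174 bp, with a fold enrichment of 5.42 (Poisson interval 3.28 to 8.50) from 17 fragments over a background of 2.32. Its summit, at 84185562 in the 3′ UTR, lay 656 bp from the Mof+/+ summit. Both intervals are wide, and the upper bound in Mof+/- lay just above the lower bound of 8.24 in Mof+/+. This Mof+/- peak was number 114 of 716 by fold enrichment and number 97 by width. It came no closer than 1372 bp to the start site, so Zfp36l2 had no Mof+/- peak within 1 kb of its start.

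The start site of the antisense gene AC132455.1 lay under both of these peaks. AC132455.1 is a noncoding gene on the plus strand, from 84185756 to 84216056, and it starts at the 3′ edge of the Zfp36l2 coding sequence. Its start was 462 bp from the Mof+/+ summit and 194 bp from the Mof+/- summit, nearer in both lists than the start of Zfp36l2. A ChIP fragment carries no strand of transcription, so these peaks cannot be divided between the genes. The other Mof+/+ peaks around Zfp36l2 were small, with fold enrichments of 2.75 (84179043 to 84179311) and 2.46 (84190539 to 84190840, in a UTR at the 3′ end of Thada, a neighbour named because the peak lies in it). The peak that the antisense gene added, at 84201356 to 84201707 in introns of AC132455.1 and Thada, had a fold enrichment of 3.32.

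Zfp36l1 had the largest number of peaks. The gene lies on chromosome 12 from 80107754 to 80113013 on the minus strand, with 4 transcripts whose start sites lie close together. Its wide Mof+/+ peak ran from 80111098 to 80117764, a width of 6667 bp, with a fold enrichment of 8.63 (Poisson interval 6.17 to 11.8) from 38 fragments over a background of 3.52. It was number 35 by fold enrichment and number 59 by width. The summit, at 80112463, lay 531 bp downstream of the nearest start site, in the intron. The peak ended before the main coding exon and also held the start of 1300014J16Rik, a noncoding gene on the opposite strand upstream.

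A separate Mof+/+ peak lay over the main coding exon of Zfp36l1, from 80108943 to 80110792. It had a fold enrichment of 4.41 (Poisson interval 3.04 to 6.20), with 31 fragments over the higher background of 6.26. Its summit, at 80110189, fell on the last base of the codons for the first zinc finger, and the second finger lay 55 bp away. The peaks from 80106692 to 80108060, from 80120040 to 80120958 and from 80122954 to 80123741 had fold enrichments of 3.58, 3.78 and 3.83. The first of them held the start of Gm26669, a noncoding gene antisense to Zfp36l1. The last reached only 60 bp into the 10 kb window, and the next peak outside it began 6531 bp beyond, with a fold enrichment of 4.27.

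Both Mof+/- peaks of Zfp36l1 lay within its wide Mof+/+ peak, on either side of the start sites. The one upstream, from 80115251 to 80115630, had a fold enrichment of 4.60 (Poisson interval 2.65 to 7.51) from 14 fragments over a background of 2.26. It lay 3090 bp from the Mof+/+ summit. The one in the intron, from 80112074 to 80112330, had a fold enrichment of 3.68 (Poisson interval 1.99 to 6.34) from 11 fragments, and its summit was 359 bp from the Mof+/+ summit. The stronger Mof+/- signal was thus found upstream and the stronger Mof+/+ signal in the intron, but the intervals of the 2 Mof+/- summits overlapped. The upstream Mof+/- summit, at 80115553, lay 2540 bp from the nearest start of Zfp36l1. The noncoding gene 1300014J16Rik starts nearer to it, at 80115863, so this peak cannot be assigned to either gene.

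Zfp36 had the widest peak and the lowest enrichment of the family. The gene lies on chromosome 7 from 28376784 to 28380253 on the minus strand, with 2 transcripts. Its wide Mof+/+ peak ran from 28374437 to 28384970, which at 10534 bp was number 11 by width in the whole list, and covered the gene entirely. The fold enrichment of 5.94 (Poisson interval 4.25 to 8.10) was number 687. Its summit held 38 fragments, the same number as that of Zfp36l1, but the background there was 5.57 against 3.52. The lowest background in the Mof+/+ list was 3.52, and 49.9% of the solved summits were within 0.1% of it.

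The Zfp36 summit, at 28378981, lay 274 bp downstream of the shorter transcript's start, in the intron of the longer transcript and in the UTR of the shorter one. The start of the antisense gene Gm44710 was 1 bp away. The zinc finger codons lay under the peak, 764 and 878 bp from the summit. On either side were smaller Mof+/+ peaks with fold enrichments of 3.83 (28372236 to 28373469, over the start sites of Plekhg2) and 3.98 (28385419 to 28386747). The Mof+/- peak ran from 28378375 to 28378770, with a fold enrichment of 3.99 (Poisson interval 2.21 to 6.73) from 12 fragments over a background of 2.26. Its summit was 255 bp from the Mof+/+ summit.

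**Figure D2:**
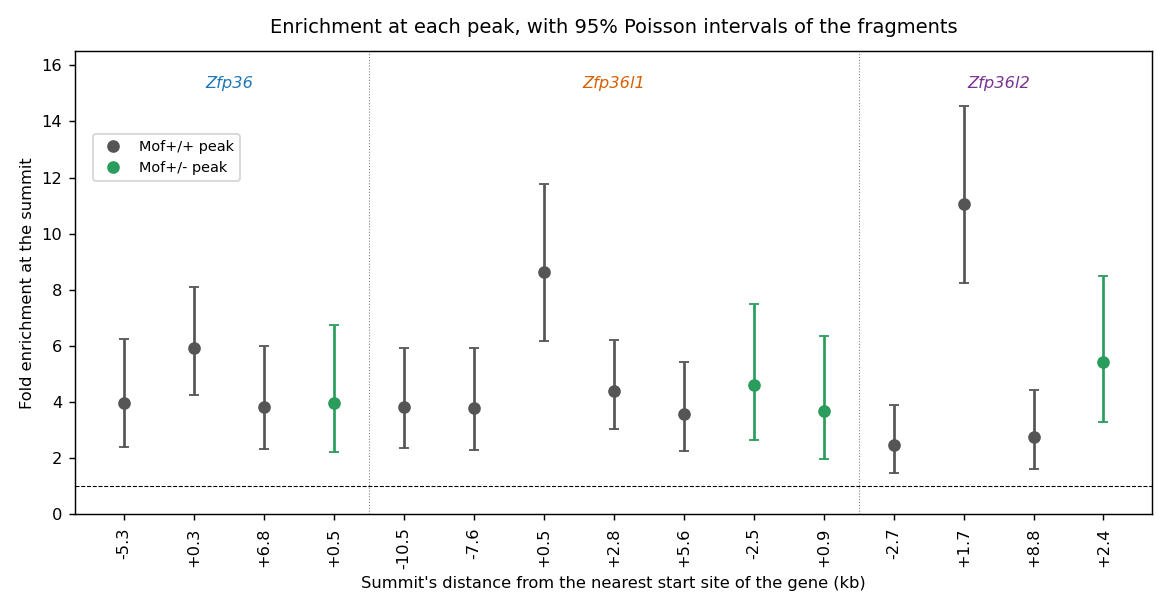
Fold enrichment at each of the 15 peaks of the 3 genes, ordered by gene, list and the summit's distance from the nearest start site of the gene in kb; bars are 95% Poisson intervals of the fragments and the dashed line marks a ratio of 1. The wide Mof+/+ peaks of Zfp36l1 (8.63) and Zfp36l2 (11.1) stand highest, and the Mof+/- points lie between 3.68 and 5.42.

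Set side by side, the strongest Mof+/+ peaks followed the order Zfp36l2 (11.1), Zfp36l1 (8.63) and Zfp36 (5.94). Neighbours in this order had overlapping Poisson intervals, while the interval of Zfp36l2 began at 8.24 and that of Zfp36 ended at 8.10. These intervals take the background as known. The intervals of the fragments themselves overlapped, at 36.3 to 64.8 for Zfp36l2 and 26.9 to 52.2 for Zfp36. The members were chosen on these peaks, so the order is a description. The strongest Mof+/- peaks had the same order, at 5.42, 4.60 and 3.99, with intervals that all overlapped. Within each gene, the interval of the strongest Mof+/- peak overlapped that of the strongest Mof+/+ peak. These intervals compare one peak list with the other and not the animals, and overlap does not show that the values were alike.

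Width differed more than enrichment between the lists. The Mof+/+ peak was 26.6 times as wide as the Mof+/- peak at Zfp36, 25.9 and 17.5 times at Zfp36l1, and 8.35 times at Zfp36l2. The Mof+/- peaks lay wholly inside the Mof+/+ ones and took up between 3.76% and 12.0% of their length. Mof+/- summits had a lowest solved background of 2.26 fragments, against 3.52 for Mof+/+ summits, and library depths were not analysed here. The weakest Mof+/- peak had a −log10 p of 4.72, against 3.25 for Mof+/+. The part of these differences in the widths was not tested.

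**Figure D3:**
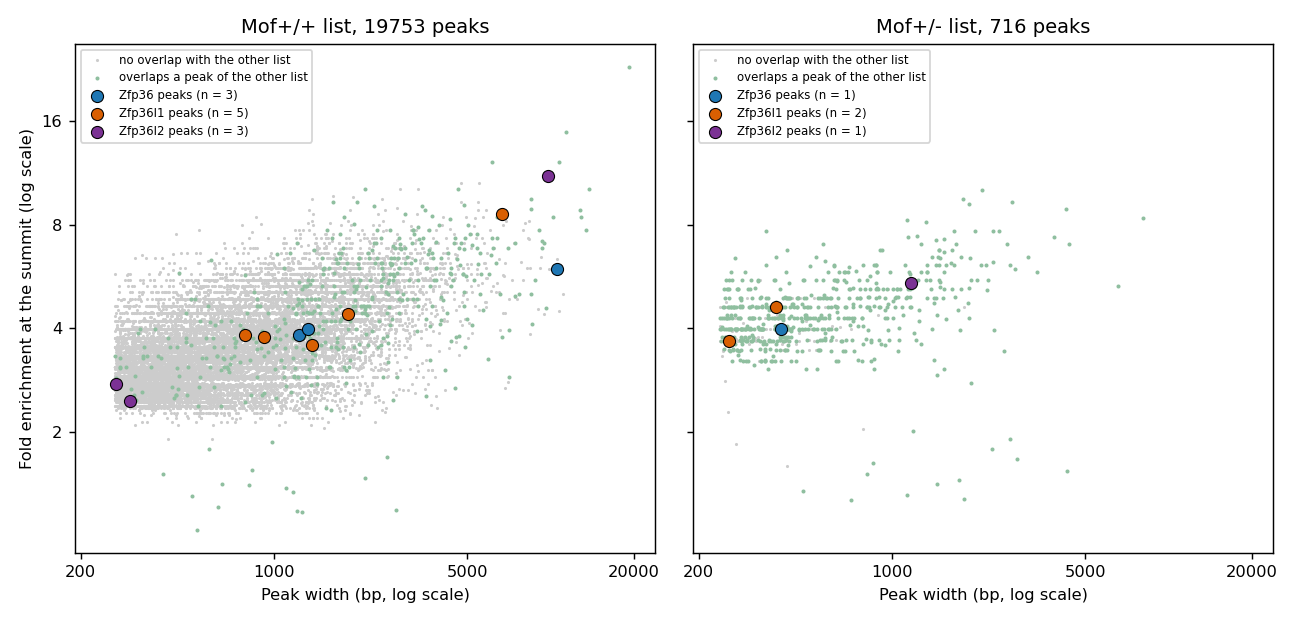
Fold enrichment against width, both on log scales, for all peaks on chromosomes 1 to 19, X and Y (grey or green points) with the peaks of the 3 genes enlarged. The wide Mof+/+ peak of each gene sits at the right edge of its list, whereas the 8 smaller ones and the 4 Mof+/- peaks lie within the bulk.

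Of the 11 Mof+/+ peaks around the 3 genes, 3 were overlapped by a Mof+/- peak, and these were the wide ones. None of the 8 smaller peaks was overlapped, and nothing is read from this, since among all Mof+/+ peaks the share was 2.44%, and among the 79 peaks wider than 6000 bp it was 48.1%. The 8 smaller peaks ranged in fold enrichment from 2.46 to 4.41 and in width from 269 to 1850 bp. Of these 8, 6 had a p-value as strong as the weakest one in the Mof+/- list.

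Coverage of the gene bodies is given as a description, since the members were chosen on these peaks and nothing is read from it. Mof+/+ peaks covered 100% of the Zfp36 and Zfp36l2 bodies and 77.4% of the Zfp36l1 body. Of 1586 protein-coding genes between 3470 and 5260 bp long, the range of the members, 11 were covered fully and 21 by at least 75%. These counts include the members. In the Mof+/- list, peaks covered 11.4% of Zfp36, 4.89% of Zfp36l1 and 29.2% of Zfp36l2.

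Each of the 3 genes had the start site of an annotated gene on the opposite strand inside its body: Gm44710 at Zfp36, Gm26669 at Zfp36l1 and AC132455.1 at Zfp36l2. Among all protein-coding genes 26.7% had such a start site, and among the 1586 of the same length 11.3% did. The starts of Gm44710 and AC132455.1 lay under wide Mof+/+ peaks, and that of Gm26669 under a smaller one. The antisense gene of Zfp36l2 was part of the rule that chose the peaks, so these shares are a description and nothing is read from them.

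The peaks also differed in sequence. The wide Mof+/+ peaks held 29.8 CG per kb at Zfp36, 46.0 at Zfp36l1 and 45.2 at Zfp36l2, against a median of 24.5 over the Mof+/+ list. The Mof+/- peak of Zfp36l2 held 117.5 CG per kb, the one of Zfp36 48.0, and those of Zfp36l1 89.5 upstream and 38.9 in the intron, against a median of 33.1 in the Mof+/- list. Chromatin was cut with CviKI-1, an enzyme that cleaves where a purine and a pyrimidine flank GC, and was then sonicated, so fragment ends were not set by these sites alone. Their density was 24.2 per kb in the wide peak of Zfp36, 18.0 at Zfp36l1 and 27.3 at Zfp36l2, around the list's median of 21.2. Its part in the enrichment was not tested.

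The promoter of Zfp36l1 is shown because the wide peak covered it and because it holds a TATA box sequence. The line gives the 250 bases upstream of the RefSeq start site, at chr12:80113014-80113263 on the minus strand of GRCm38 patch 6, with TATAAA in capitals.
Zfp36l1 upstream: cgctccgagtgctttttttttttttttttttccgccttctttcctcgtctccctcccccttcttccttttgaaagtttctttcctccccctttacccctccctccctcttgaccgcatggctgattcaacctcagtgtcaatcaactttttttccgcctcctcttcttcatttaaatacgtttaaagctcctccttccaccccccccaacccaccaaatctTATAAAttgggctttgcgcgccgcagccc

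The match began 29 bases before the start site. TATAAA, searched on both strands, was found in 13.6% of the 32851 RefSeq promoter windows from 250 bases before to 50 bases after a start. The window of Zfp36 held 0 matches to it. It held 1 match to GGGCGG, a letter run bound by Sp factors that 35.7% of all windows contained on either strand. It also held 1 match to CCGGAAG, the core of ETS factor sites, which 8.86% contained on either strand. The CArG box, the element of serum response factor, was present once and in 1.63% of all windows. The Zfp36l1 window held 0 matches to these last 3. The windows of Zfp36 and Zfp36l1 held 21 and 15 CG, against a median of 7. A match describes the letters and does not show a bound site. Zfp36l2 was not analysed here for these motifs.

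Zfp36l3 had no peak of either genotype. It lies on chromosome X from 53774048 to 53776394, and the nearest Mof+/+ peak was 716364 bp from its start site. Its promoter window held 9 CG, fewer than those of Zfp36 and Zfp36l1 but above the median of 7 over all windows.

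Other genes with peaks of similar shape were ranked by likeness to each member, as a description only, since the measures include those that chose the members. Likeness was the Euclidean distance over 3 measures, namely log2 fold enrichment and log2 width of the strongest Mof+/+ peak and log2 fold enrichment of the strongest Mof+/- peak, among the other 508 protein-coding genes with peaks of both lists. Plekhg2 had a distance of 0 from Zfp36 because the same peaks lie within reach of both genes, and Lef1, a transcription factor gene of the Wnt pathway, came next at 0.40. Hexim1, which encodes an inhibitor of the elongation factor P-TEFb, was nearest to Zfp36l1 at 0.31, followed by Serinc3 at 0.36 and Txnip at 0.40. Isl2, a LIM homeobox gene, was nearest to Zfp36l2 at 0.30, followed by Irf2bp2 at 0.47. The members were 0.70 to 1.01 apart, and among these genes Zfp36l1 was number 26 and Zfp36l2 number 32 in nearness to Zfp36, while Zfp36l2 was number 36 in nearness to Zfp36l1. These distances have no error, since each list gave 1 value per peak.

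Of the decay machinery that ZFP36 proteins work with, namely deadenylation, decapping and exosome genes, 34 of 44 (77.3%) had a Mof+/+ peak within 1 kb of a start site and 2 (4.55%) had a Mof+/- peak. Over these and the lists of other stability proteins, ZFP36 partners, target mRNA genes and other CCCH genes, 7 lists in all, 109 of 139 genes (78.4%) had a Mof+/+ peak within 1 kb of a start site, and 4 (2.88%) had a Mof+/- peak. Among all protein-coding genes 41% and 1.32% did. The peaks of the 109 genes had a median fold enrichment of 4.42 and a median width of 1133 bp, against 3.98 and 833 bp over all protein-coding genes with such a peak. Each gene entered with its promoter peak of highest fold enrichment, and the widest of these was at Btg1, with 5720 bp. The 3 members were chosen with their wider peaks known, so nothing is read from this difference.

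Among deadenylation factors, which shorten poly(A) tails, 16 of 18 genes had a Mof+/+ promoter peak. The highest fold enrichments were at Btg1 (8.41), Pan3 (6.64), a subunit of the PAN2-PAN3 deadenylase, and Btg2 (6.46). BTG and TOB proteins bind the CCR4-NOT complex, and Tob2 was the one gene of this list with a Mof+/- promoter peak (fold enrichment 4.60, against 6.17 in Mof+/+). Of the decapping factors 9 of 12 had a Mof+/+ promoter peak, led by the helicase gene Ddx6 (7.74), Lsm14a (5.12) and Patl1 (5.10). Ddx6 also had a Mof+/- promoter peak (4.60). Of the RNA exosome and its cofactors 9 of 14 had a Mof+/+ promoter peak, led by Exosc7 (5.53), Exosc8 (5.09) and Dis3l (4.65), and 0 showed a Mof+/- one.

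Other proteins that set mRNA stability had Mof+/+ promoter peaks at 11 of 12 genes. The highest was at Zc3h12a (6.17), which encodes the endonuclease Regnase-1, and Rc3h1, Tia1 and Celf1 shared a fold enrichment of 5.09. Kinases, phosphatases and partners of ZFP36 proteins had them at 16 of 18 genes, led by the 14-3-3 genes Ywhae (8.12) and Ywhaz (6.34) and by Eif4e2 (6.64), which encodes a cap-binding repressor. In both lists 0 genes carried a Mof+/- promoter peak. Other CCCH zinc finger genes had Mof+/+ promoter peaks at 36 of 40, led by the splicing regulator Mbnl1 (8.41), Ppp1r10 (7.26) and Zc3h4 (7.08). Ppp1r10 and Zc3h4 also had Mof+/- promoter peaks (4.52 and 4.91).

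Genes whose AU-rich mRNAs are known targets of the family stood closest to the background. Of these 25 genes, 12 (48.0%) carried a Mof+/+ promoter peak and 0 a Mof+/- one. The highest fold enrichments were at Notch1 (5.96), Bach2 (5.75) and Irf8 (5.36). Tnf, the cytokine gene best known as a target, had a Mof+/+ promoter peak with a fold enrichment of 4.14. The cytokine genes Il2, Il6, Il10, Il1b and Ifng were among the 13 without one. These 6 cytokine genes were named after their values were seen.

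**Figure D4:**
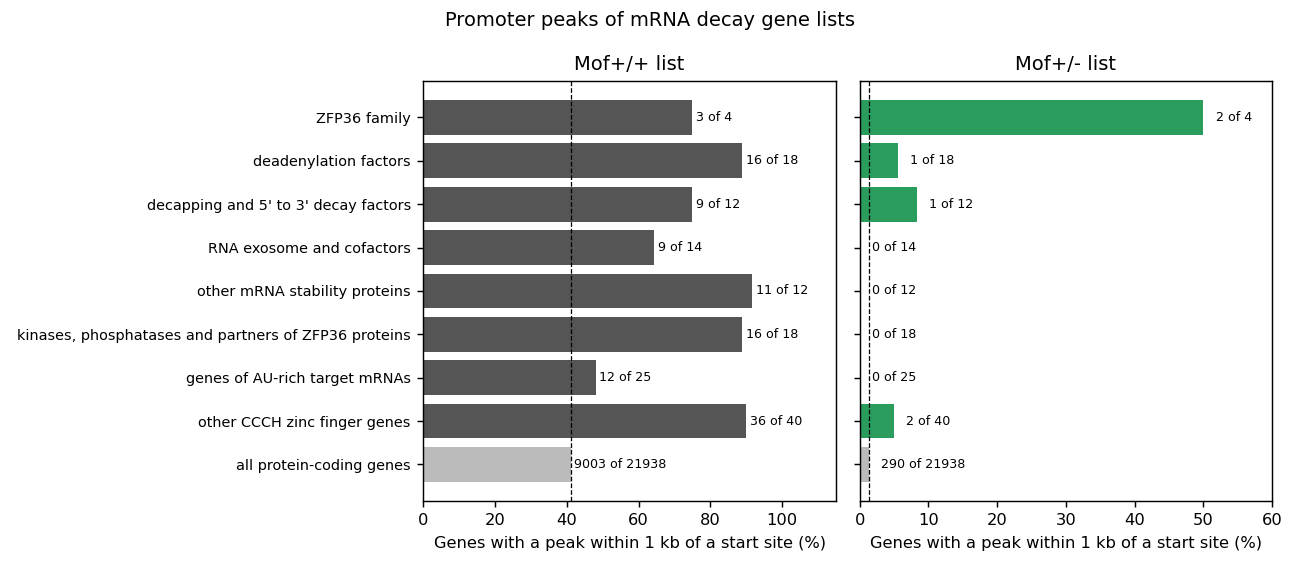
Share of each gene list with a peak within 1 kb of a start site, in percent, in the Mof+/+ list (left) and the Mof+/- list (right, with a shorter axis); bar labels give the counts and the dashed line the share of all protein-coding genes. Of the ZFP36 family 3 of 4 and 2 of 4 had such a peak, and target mRNA genes (12 of 25 in Mof+/+) lay nearest to the dashed line.

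The cell types behind these peaks were not separated. Mof+/+ promoter peaks were found at 10 of 15 adipocyte, 11 of 12 B cell and 9 of 12 T cell markers. They were found at 1 of 12 macrophage, 2 of 10 endothelial, 3 of 10 fibroblast and progenitor and 1 of 10 mesothelial markers, against 41% of all protein-coding genes. The rule used for the 3 genes takes peaks in the gene body or within 10 kb of a start site. It gave 14 of 15 adipocyte, 12 of 12 B cell and 10 of 12 T cell markers. Of the others it gave 2 of 12 macrophage, 3 of 10 endothelial, 3 of 10 fibroblast and progenitor and 1 of 10 mesothelial markers. Among all protein-coding genes the share was 48.3%. Lep, named after its value was seen, was the adipocyte marker without a peak. In the Mof+/- list 1 B cell marker (Pax5) and 1 progenitor marker (Pdgfra) had a promoter peak, against 1.32% of all protein-coding genes. The part of lymphocytes in the peaks at Zfp36, Zfp36l1 and Zfp36l2 was not tested.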

How the data were processed

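MOF ChIP-seq of WAT was deposited as 1 peak list per genotype, assigned by the list's name. Per the paper's methods, the authors used snakePipes to map reads to GRCm38 and called peaks with MACS2 (2.1.1.20160309.3 in the submitters' processing notes) against input at a q-value of 0.1. How the libraries of a genotype entered a list is not given in the sources used here. The methods also name a merge of peaks within 1000 bp, but the Mof+/+ list holds 3796 and the Mof+/- list 148 pairs of neighbours at or under that distance, so both were taken as unmerged. The deposited values are a fold enrichment (ratio) at the summit and its −log10 p and −log10 q, made by the authors' peak caller, with the summit position. Signal, H3 and input files were not analysed here. The design text counts 3 Mof+/- animals, while the labels give 2 libraries and the reporting summary 2 littermates per genotype.

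Genes came from GENCODE M21 and sequence from GRCm38.p6, the build of the lists. Positions count from 1. Overlap meant at least 1 bp. Fragments n and background λ were solved from fold enrichment = (n + 1)/(λ + 1) and the Poisson p-value (error under 0.001 for 99.98% and 99.44% of peaks), and intervals are exact 95% Poisson intervals with λ taken as known. Zinc fingers were found in the translated coding sequence as C-X8-C-X5-C-X3-H. Solver and overlap code were tested on simulated data. Scripts used Python 3.11.15, pandas 2.3.3, scipy 1.17.1, pysam 0.24.0 and samtools 1.23.1.

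The members and gene lists were chosen with earlier results of these data known. Named genes were the members, the antisense neighbour, Zfp36l3, genes starting within a member's peak, the nearest genes by peak shape, and in each list those with a Mof+/- promoter peak and the 3 of highest Mof+/+ fold enrichment. Cell type markers with a Mof+/- promoter peak were named too, and the text says where other genes were named outside this rule. Alternative windows, start sites, thresholds, merging and overlaps were tried.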

Additional observations from a re-analysis of the deposited data

How the results depend on the processing

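Of 124 alternative values for 27 results, 116 stayed within 1.5 times the reported count or within the Poisson interval of the reported fold enrichment, and 8 moved. All 3 genes had a Mof+/+ peak under every alternative. A Mof+/- peak was found at 2 of them within 1 kb of a start site or under a q-value limit of 0.001, and at all 3 under the other alternatives. The 11 Mof+/+ peaks became 3 within 1 kb of a start site, 5 within 3 kb, 6 when peaks within 1000 bp were merged, and 3 when the Mof+/+ list was limited to its 731 strongest peaks by p-value, an alternative chosen after seeing the data. The 4 Mof+/- peaks became 2 within 1 kb and 2 under a q-value limit of 0.001. The 3 overlapped Mof+/+ peaks became 0 when 50% of both peaks had to be shared, which the difference in width precludes. Of the ZFP36 family, the 2 genes with a Mof+/- promoter peak became 1 under a limit of 0.01. No paired analysis was possible because the lists carry no replicate columns, and no replicate could be left out. The Mof+/- summits of the 3 genes rest on 11 to 17 fragments each, which sets the width of their intervals.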
